A study of Mus musculus with 14 samples.

Results

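In the gut lining, 10 genes that make or remove reactive oxygen and nitrogen were followed across 14 RNA-seq libraries of mouse colon epithelium. They were chosen by symbol, and all 10 were found among the 37680 genes of the deposited count table: the NOX1 oxidase genes Nox1, Noxo1 and Noxa1, the DUOX2 genes Duox2 and Duoxa2, the nitric oxide synthase gene Nos2, and the defense genes Gpx1, Gpx2, Nqo1 and Txnrd1. By their labels, 4 libraries were WT on water and 4 were Smad4 KO on water. A further 3 WT and 3 Smad4 KO libraries followed 3 d of 2.5% dextran sulfate sodium (DSS), a sulfated sugar polymer that damages the lining of the colon when drunk. The Smad4 KO mice carry Smad4 f/f alleles and Villin-Cre ERT2, a tamoxifen-inducible recombinase driven by the villin promoter, so that SMAD4, the shared mediator of TGF-β and BMP signaling, is lost from intestinal epithelial cells and kept in other cells. The mice were 8 to 14 wk old. The study's scheme of treatments shows tamoxifen for the Smad4 KO mice and none for the WT mice given DSS, so genotype and tamoxifen cannot be told apart after DSS. The study's text does not say whether WT mice on water received tamoxifen, so the same limit may apply on water.

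NADPH oxidases pass electrons from NADPH across a membrane to oxygen. NOX1, the main oxidase of colon epithelium, makes superoxide and works with the organizer NOXO1, the activator NOXA1, the membrane partner p22phox (Cyba) and RAC1. DUOX2 releases hydrogen peroxide toward the lumen and needs its maturation factor DUOXA2 to leave the endoplasmic reticulum. Inducible nitric oxide synthase (Nos2) makes nitric oxide from arginine. Glutathione peroxidases 1 and 2 reduce peroxides with glutathione, GPX2 being the gastrointestinal form. NQO1 reduces quinones, and thioredoxin reductase 1 (Txnrd1) keeps thioredoxin reduced; both are classical targets of the transcription factor NRF2.

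Total counts ranged from 12882827 to 26087231 per library, and mitochondrial genes held 4.05% to 32.8% of them. The share was over 20% in WT water 3, WT water 4 and Smad4 KO water 4. Smad4, the targeted gene, had 118.5 to 159.3 CPM (counts scaled to library size) in WT on water and 170.2 to 182.3 in WT after DSS. In Smad4 KO it had 40.4 to 43.9 after DSS and 35.1 to 46.8 in water libraries 2 to 4. It had 158.1 in the library labelled Smad4 KO water 1, which goes against its label. Fold changes of the members that involve that group are given with and without this library. The study's figure legends give 3 RNA-seq replicates for Smad4 KO on water, where the deposited data hold 4, and do not say which 3. The summed level of 7 epithelial markers was 11220 to 18210 CPM, while of 4 endothelial markers (Emcn at 0 in every library) and 5 squamous markers (Krt5 and Trp63 at 0 in every library) it reached 0.855 and 3.74 CPM. CPM here are relative to the counts of the 15127 genes tested, with TMM scaling. The libraries' names carry letter prefixes of unstated meaning, which differ between the groups: all 3 Smad4 KO DSS libraries have D and no Smad4 KO water library has it, so DSS and prefix cannot be told apart in Smad4 KO.

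Of the 10 genes, 1 passed the test in 1 of the 4 comparisons: Noxa1, the NOX1 activator, was higher in Smad4 KO than in WT after DSS. Comparisons used edgeR's quasi-likelihood test on the counts of the 2 groups with Benjamini-Hochberg adjustment over all 15127 genes and a threshold of 0.05. In Smad4 KO against WT after DSS, 113 of all genes (0.747%) passed, and 485 (3.21%) by DESeq2, which called 2 members, Noxa1 and Gpx2. In WT, DSS against water, no member and no gene passed (0.0%), although 5 members and 3662 genes (24.2%) were under an unadjusted p of 0.05. By DESeq2, 4 members and 1641 genes (10.9%) passed. In this comparison WT water 3 and 4 held 30.6% and 32.8% mitochondrial counts, and the WT DSS libraries 4.54% to 6.87%. With that share as a covariate in edgeR, 1419 genes were under an unadjusted p of 0.05. On water, Smad4 KO against WT, no member and 1 gene (0.00661%) passed by edgeR, with 2 members and 20.4% of all genes at an unadjusted p under 0.05, and 1 member and 646 genes (4.28%) passed by DESeq2. In Smad4 KO, DSS against water, no member and 1 gene (0.00661%) passed by edgeR, with 2 members and 6.37% of all genes at an unadjusted p under 0.05, and by DESeq2 no member and 71 genes (0.47%) passed. The difference between the DSS responses of the genotypes, tested over all 14 libraries, likewise gave no member and 1 gene (0.00661%), with 1 member and 7.5% of all genes at an unadjusted p under 0.05, and by DESeq2 no member and 8 genes (0.0529%). The labels number the replicates without naming the mice, so p-values measure the spread between these libraries.

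**Figure D1:**
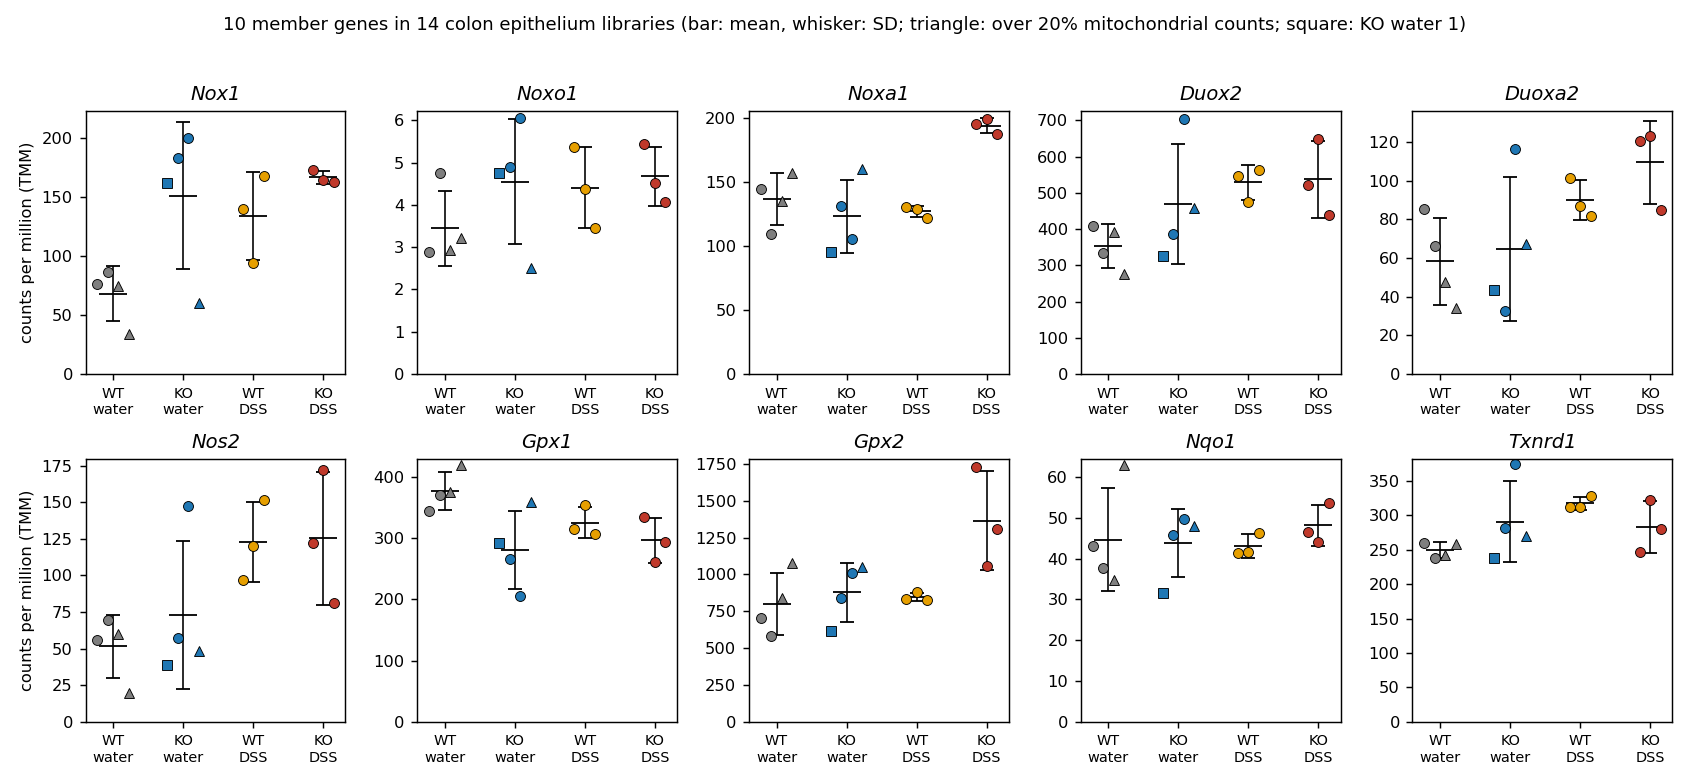
CPM of the 10 genes in each of the 14 libraries (y axes from 0; bar and whisker, mean and SD of the group). The 3 Smad4 KO DSS libraries stand above all others for Noxa1 (187.2 to 199.2 CPM), while Nox1 is lowest in WT water 4 and Smad4 KO water 4, both with over 20% mitochondrial counts (triangles).

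**Figure D2:**
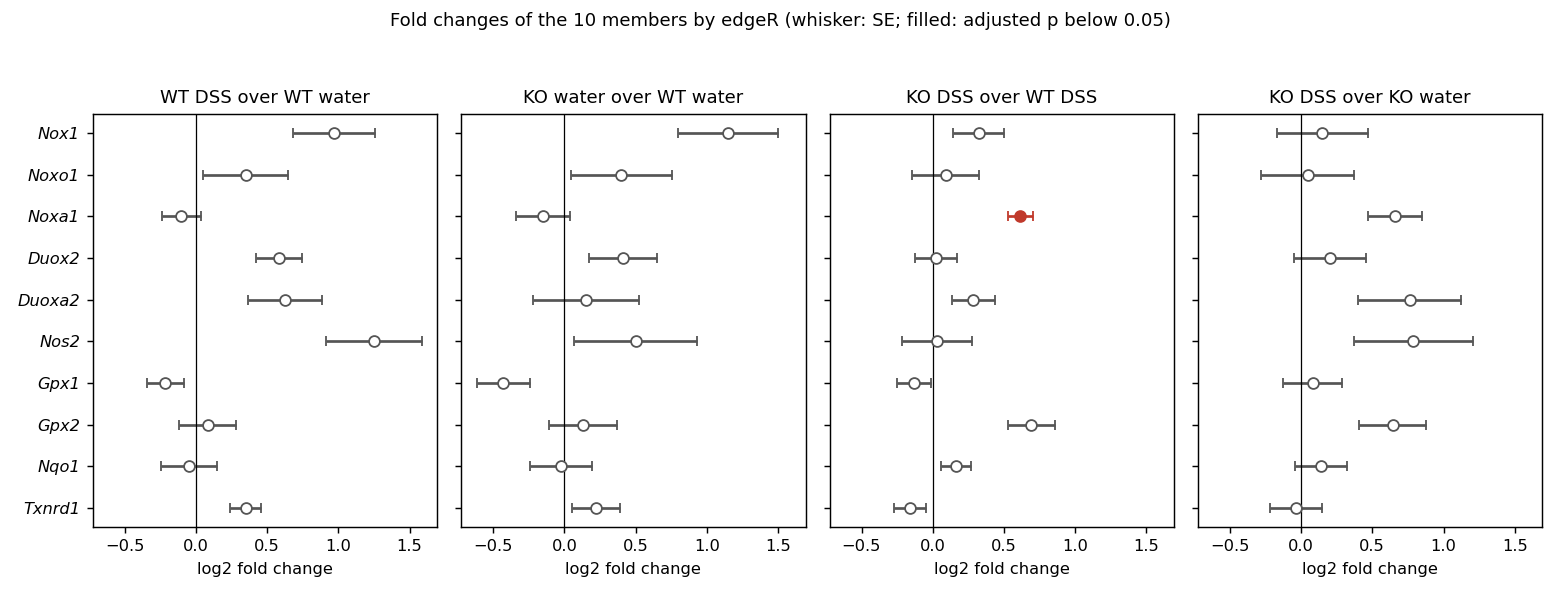
Log2 fold change (x axis) of each gene in 4 comparisons by edgeR, with the standard error as whisker. Noxa1 in KO DSS over WT DSS (0.61) is the only filled point, the mark for an adjusted p below 0.05.

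Compared per length, the 2 glutathione peroxidase genes stood far above the oxidase genes. Per kb of annotated exon, WT epithelium on water held 750.0 ± 197 CPM of Gpx2 and 446 ± 36.4 CPM of Gpx1 (SD, n = 4). The oxidase subunits followed with 84.4 ± 12.4 for Noxa1, 52.0 ± 8.9 for Duox2, 36.6 ± 14 for Duoxa2 and 20.5 ± 6.98 for Nox1 CPM per kb, with Txnrd1 (62.0 ± 2.79) between Noxa1 and Duox2. Nqo1 (28.8 ± 8.17) and Nos2 (12.3 ± 5.2) lay near Nox1, and Noxo1, the organizer, was at the bottom with 1.14 ± 0.292 CPM per kb. In all 4 groups the order was Gpx2, then Gpx1, then the rest, and the ranges of Gpx2 and Gpx1 and those of Gpx1 and the next gene did not overlap. On water in WT, each neighbour from Txnrd1 down to Nos2 overlapped the next in range, so their order is not resolved. After DSS, in Smad4 KO, Noxa1 (119.9 ± 3.8) stood clear of Duox2 (79.3 ± 15.6) below it, where in WT after DSS Noxa1 (78.5 ± 2.8) overlapped both Txnrd1 (79.0 ± 2.28) and Duox2 (78.0 ± 7.1; CPM per kb, SD, n = 3).

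**Figure D3:**
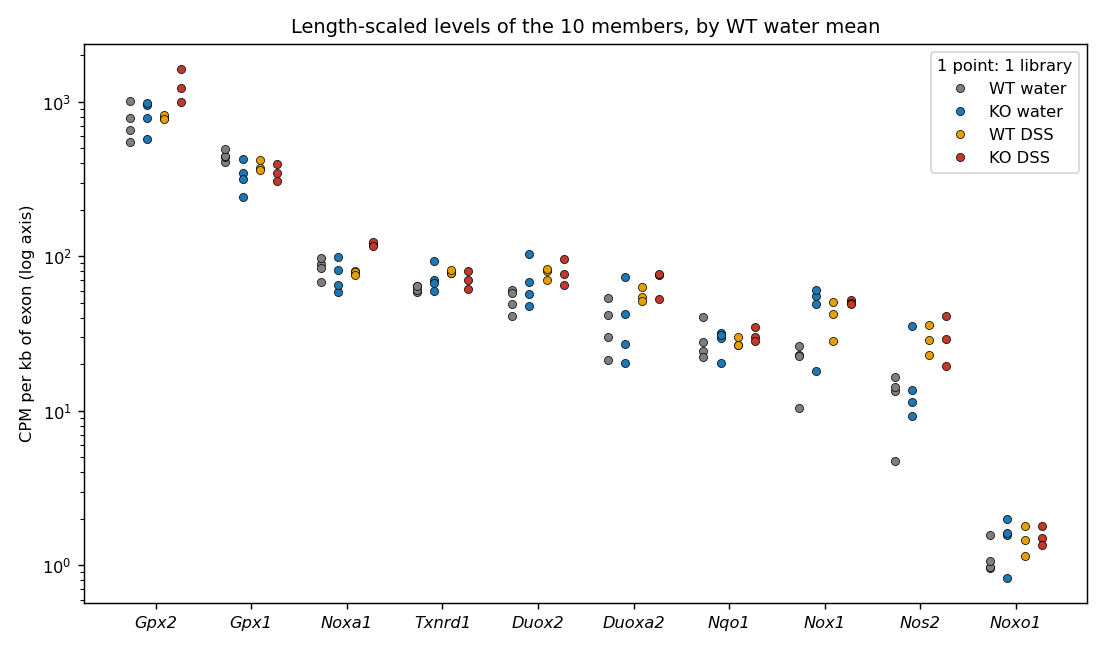
CPM per kb of exon on a log axis, 1 point a library, genes ordered by their WT water mean. Gpx2 and Gpx1 sit highest in all groups, and Noxo1 lies at the bottom near 1 to 2 CPM per kb.

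Nox1 itself (ENSMUSG00000031257; mm9 chromosome X, 130620960 to 130756495, minus strand), the catalytic subunit, was lowest in WT on water. WT water libraries had 76.3, 86.7, 74.3 and 34.2 CPM, and WT DSS libraries had 139.5, 93.8 and 167.2. All 3 DSS values lay above all 4 water values, as in 12.8% of all genes tested. The log2 fold change was 0.97 ± 0.29 (SE), with an edgeR adjusted p of 0.11. DESeq2 gave an adjusted p of 0.021, and over 17 alternatives it ran from 0.021 to 0.68. Within the libraries of prefix D the log2 fold change was 0.52 ± 0.20 and with the mitochondrial share as a covariate it was 0.49 ± 0.33. Smad4 KO libraries on water had 161.4, 183.0, 199.4 and 60.0 CPM, the first 3 above every WT water library and the last below 3 of them. The log2 fold change of Nox1 on water, Smad4 KO over WT, was 1.15 ± 0.35 (edgeR adjusted p = 0.16), and without Smad4 KO water 1 it was 1.12 ± 0.39 (edgeR adjusted p = 0.21). Smad4 KO water 4, the low library, had 21.4% mitochondrial counts; without it the log2 fold change was 1.41 (edgeR adjusted p = 0.025), and without the 3 libraries over 20% it was 1.16 ± 0.18 (edgeR adjusted p = 0.029). It passed with the name prefix as a block (1.04 ± 0.17, edgeR adjusted p = 0.034), with the replicate number as a block (1.10 ± 0.15, edgeR adjusted p = 0.026) and in DESeq2 (adjusted p = 0.033). In DESeq2 without Smad4 KO water 1, the adjusted p was 0.073. With the mitochondrial share as a covariate it was 0.67 ± 0.30 (edgeR adjusted p = 0.38), and over 19 alternatives the adjusted p ran from 0.025 to 0.39. Smad4 KO DSS libraries had 172.6, 164.2 and 162.4 CPM, the narrowest group, within the range of Smad4 KO on water and overlapping WT DSS.

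**Figure D4:**
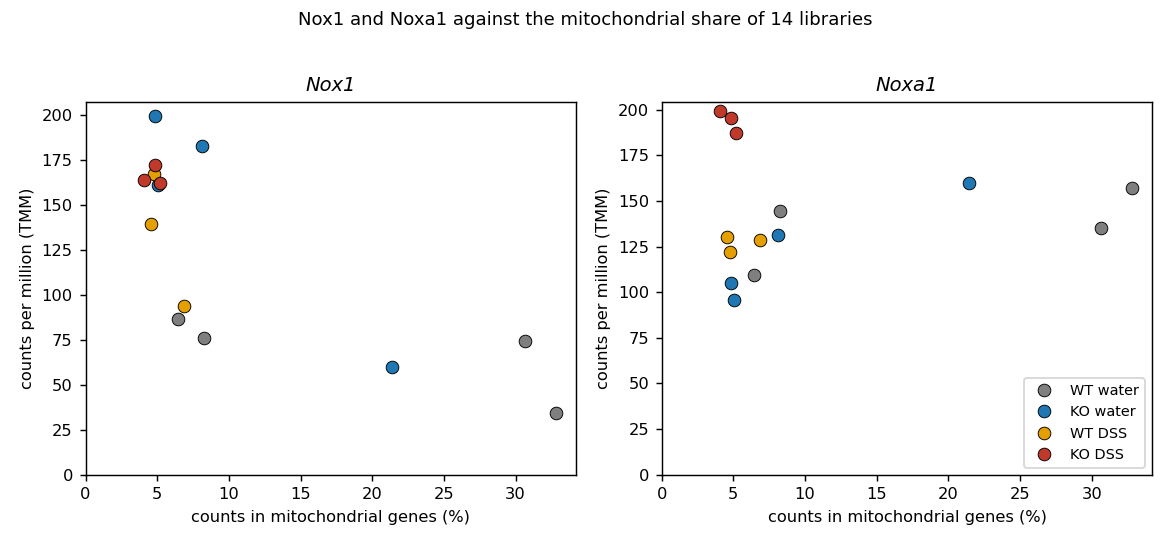
CPM of Nox1 and Noxa1 (y) against the share of counts in mitochondrial genes (x, %) for the 14 libraries. Nox1 does not exceed 74.3 CPM in the 3 libraries over 20%, while Noxa1 is highest in the 3 Smad4 KO DSS libraries, with 4.05% to 5.20%.

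Noxa1 (ENSMUSG00000036805; mm9 chromosome 2, 24941187 to 24950669, minus strand), which activates NOX1, was the 1 member that passed the edgeR test between the genotypes after DSS. WT DSS libraries had 130.3, 128.8 and 121.8 CPM, and Smad4 KO DSS libraries had 195.5, 199.2 and 187.2. Every Smad4 KO value exceeded every WT value, as in 10.4% of all genes tested, and among members only Gpx2 shared that. Noxa1 rose 1.53-fold (log2 fold change 0.61 ± 0.088, edgeR adjusted p = 0.018). The adjusted p ran from 3.5e-07 in DESeq2 to 0.60 over 15 alternatives: it was 0.60 with all 14 libraries sharing 1 estimate of the spread, 0.083 with the prefix as a block, and 0.061 to 0.086 without WT DSS 2, WT DSS 3 (the 1 library here whose prefix is not D, so the same fit as prefix D alone), Smad4 KO DSS 2 or Smad4 KO DSS 3, while the log2 fold change stayed between 0.58 and 0.64. Noxa1 on water did not separate the genotypes, with 109.5 to 156.9 CPM in WT and 95.5 to 159.9 in Smad4 KO. In Smad4 KO, the DSS libraries again lay above all 4 water libraries, as in 4.6% of all genes, with a log2 fold change of 0.66 ± 0.19 (edgeR adjusted p = 0.66), and 0.55 ± 0.19 (edgeR adjusted p = 0.74) without Smad4 KO water 1, where 7.25% of all genes did not overlap. The difference between the genotypes' DSS responses was 0.76 ± 0.24 on the log2 scale (edgeR adjusted p = 0.64), and 0.66 ± 0.23 (edgeR adjusted p = 0.58) without Smad4 KO water 1. Of Noxa1's exon bases, 3.28% lie opposite those of Entpd8, and the strand setting of the counting is not stated.

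Some markers of cell types and crypt positions differed in the same contrasts, and others overlapped. After DSS, the summed level of 6 surface colonocyte markers was 2134 to 2794 CPM in Smad4 KO against 2917 to 3804 in WT, and of 5 goblet markers 9784 to 10650 against 12180 to 13800. Of the single markers, 3 surface colonocyte and 2 goblet genes were below every WT library, and the rest of these 2 lists overlapped. Of all 15127 genes tested, 1722 were likewise below every WT library and 1566 (10.4%) above. The 7 epithelial markers summed to 15100 to 16080 CPM in Smad4 KO against 16270 to 16860 in WT. Of them, 4 were below every WT library, 0 were above and 3 overlapped. The crypt base markers did not move together: Smoc2 (73.2 to 81.2 CPM in Smad4 KO against 19.5 to 32.4 in WT) and Lgr5 (11.9 to 12.9 against 2.56 to 6.11) were higher, Ascl2 was lower (2.51 to 3.71 against 4.25 to 6.86) and Axin2 overlapped (18.6 to 23.1 against 18.2 to 32.1). The sum of these 4, 109.8 to 120.3 CPM against 44.6 to 77.5, was mostly Smoc2. The 7 fibroblast markers summed to 15.9 to 20.9 CPM in Smad4 KO against 6.76 to 11.6 in WT, with 4 of them above every WT library. All 4 proliferation and all 12 phagocyte markers overlapped between the genotypes after DSS. Of 6 lymphoid markers, 1 was above every WT library, and of 5 distal colon markers, 1 was below. On water, surface colonocyte markers summed to 2212 to 3088 CPM in Smad4 KO against 3427 to 4401 in WT, and fibroblast markers to 12.1 to 35.9 against 6.19 to 10.8. Only 1 of the 6 surface colonocyte markers, Car1, lay below every WT water library, and 5 overlapped. Without Car1 the sums overlapped, with 1399 to 1921 CPM in Smad4 KO and 1701 to 2257 in WT. Of the 7 fibroblast markers, 3 lay above every WT water library and 4 overlapped. Of all genes tested, 784 (5.18%) lay above every WT water library and 786 below. On water, Lgr5 (16.2 to 22.1 CPM in Smad4 KO against 7.67 to 13.4 in WT) was above every WT library. So was Smoc2 (72.2 to 99.75 against 38.9 to 63.1), and the other 2 crypt base markers overlapped. The WT crypt base sum was 101.7 to 143.9 CPM on water, above that after DSS, with Axin2 overlapping. No marker of these lists was at 0 in every library. Their part in the results on Noxa1, Gpx2 and Nox1 was not tested, and in bulk libraries fewer cells of a type and less RNA per cell cannot be told apart.

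Noxo1 (ENSMUSG00000019320; mm9 chromosome 17, 24833179 to 24837474, plus strand), which organizes the NOX1 complex, was scarce, with 30 to 147 raw counts per library and 2.51 to 6.05 CPM. Its log2 fold changes lay between 0.045 and 0.40 in the 4 comparisons, also without Smad4 KO water 1, and none passed. Noxo1 is uncertain in level as well, since 70.4% of its exon bases lie opposite exons of Tbl3 and counting without strand could mix or drop reads of either gene. For Nox1 the same applies to the 12.1% shared with Cstf2. The obligate membrane partner Cyba, taken from the oxidase list for its role, had 130.9 ± 7.15 CPM (SD, n = 4) in WT on water and 132.4 ± 5.05 (SD, n = 3) after DSS. In Smad4 KO, Cyba had 111.3 ± 55.2 (SD, n = 4) and 114.3 ± 11.4 CPM (SD, n = 3), and its edgeR adjusted p ran from 0.35 to 0.995 over the 4 comparisons. Cybb, the oxidase subunit of phagocytes, had group means of 0.232 to 0.521 CPM, and 12 phagocyte markers found in the table summed to 58.3 to 134.3 CPM. Of that, Ly6g alone held 39.0 to 110.0 CPM and set the highest sum, in Smad4 KO water 4; the other 11 summed to 9.94 to 27.3 CPM, highest in WT DSS 3. Nox3 and Nox4 had no counts in any library.

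The DUOX2 genes sit head to head, with 672 bases between their RefSeq starts. Their sequences are shown because the enzyme and its maturation factor are neighbours that were measured together; these are the 250 bases before each start (RefSeq, GRCm38.p6: Duox2 chr2:122298228-122298477, minus strand; Duoxa2 chr2:122298650-122298899, plus strand), read 5′ to 3′ along each gene, with capitals marking TATAAA.
Duox2: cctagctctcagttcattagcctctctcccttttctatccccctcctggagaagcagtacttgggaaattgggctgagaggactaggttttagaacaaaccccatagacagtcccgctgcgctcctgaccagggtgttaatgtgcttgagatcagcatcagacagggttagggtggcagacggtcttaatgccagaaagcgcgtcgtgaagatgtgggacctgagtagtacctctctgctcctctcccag
Duoxa2: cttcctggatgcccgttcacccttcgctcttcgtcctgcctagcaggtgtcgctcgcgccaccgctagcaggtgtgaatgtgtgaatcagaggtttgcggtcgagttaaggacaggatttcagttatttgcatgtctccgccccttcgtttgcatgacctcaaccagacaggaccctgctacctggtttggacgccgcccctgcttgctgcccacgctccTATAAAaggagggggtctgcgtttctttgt
TATAAA, searched on the gene's strand, begins 30 bases before the Duoxa2 start and is not in the Duox2 window, which runs from 250 before to 50 after the start. It is found in 8.32% of the 32851 windows of all genes, and among members also in Nqo1, 29 bases before its start. Of the members, 9 had a window, 11 windows in all.

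Duox2 (ENSMUSG00000068452; mm9 chromosome 2, 122104983 to 122124185, minus strand), the peroxide-making enzyme, had 409.2, 332.8, 391.4 and 276.4 CPM in WT on water and 547.6, 473.8 and 564.1 in WT after DSS. Every DSS value lay above every water value, as in 12.8% of all genes tested; of the members, Nox1, Nos2 and Txnrd1 also did so. Its log2 fold change was 0.58 ± 0.16 (edgeR adjusted p = 0.098, DESeq2 adjusted p = 0.012, and 0.012 to 0.52 over 17 alternatives). In Smad4 KO, Duox2 had 325.3, 386.4, 704.6 and 459.0 CPM on water and 522.9, 649.1 and 438.8 after DSS. The Smad4 KO groups overlapped, and after DSS the genotypes overlapped too, with a log2 fold change of 0.026 ± 0.15 (edgeR adjusted p = 0.95). Duoxa2 (ENSMUSG00000027225; mm9 chromosome 2, 122124636 to 122128621, plus strand), its maturation factor, had 85.1, 66.1, 47.6 and 34.0 CPM in WT on water and 101.3, 87.0 and 81.6 after DSS. WT DSS 3 lay just under WT water 1, and the log2 fold change was 0.62 ± 0.26 (edgeR adjusted p = 0.18). Without the 3 libraries over 20% mitochondrial counts, it was 0.25 ± 0.14, and with that share as a covariate 0.088 ± 0.22. In Smad4 KO, Duoxa2 ranged from 32.4 to 116.3 CPM on water and from 84.6 to 122.9 after DSS (log2 fold change 0.76 ± 0.36, edgeR adjusted p = 0.76; without Smad4 KO water 1, 0.61 ± 0.38, edgeR adjusted p = 0.81). The number of Duox2 counts per Duoxa2 count was 4.81 and 5.04 in WT water 1 and 2, 8.23 and 8.13 in WT water 3 and 4, 5.41 to 6.91 in WT DSS, 7.53, 11.9, 6.06 and 6.83 in Smad4 KO water 1 to 4 and 4.33 to 5.28 in Smad4 KO DSS. In WT on water, the 2 high ratios are those of the libraries over 20% mitochondrial counts. In Smad4 KO on water, the library over 20% is number 4, with a ratio of 6.83. Libraries 1 and 2, with 5.02% and 8.10%, had 7.53 and 11.9. The part of the mitochondrial share in this ratio was not tested. Duoxa2 shares 42.8% of its exon bases with Duoxa1 on the opposite strand, which had 897 counts over all 14 libraries.

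Nos2 (ENSMUSG00000020826; mm9 chromosome 11, 78734289 to 78773756, plus strand), inducible nitric oxide synthase, had the largest DSS fold among the members in WT. WT water libraries had 56.1, 69.7, 60.0 and 19.9 CPM, and WT DSS libraries had 96.9, 120.0 and 151.3. The groups did not overlap, as in 12.8% of all genes tested. The mean was 2.38-fold higher after DSS (log2 fold change 1.25 ± 0.34), which missed the threshold in edgeR (edgeR adjusted p = 0.097, DESeq2 adjusted p = 0.0085, and 0.0085 to 0.57 over 17 alternatives). Within the libraries of prefix D the log2 fold change was 0.79 ± 0.17. Leaving out each library of these 2 groups in turn, the log2 fold change ran from 0.99 to 1.44. The lowest Nos2 value was that of WT water 4, with 32.8% mitochondrial counts. In Smad4 KO, Nos2 had 39.1, 57.0, 147.7 and 48.0 CPM on water and 122.3, 172.1 and 81.4 after DSS. Smad4 KO water 3 stood alone above the rest of its group and overlapped the DSS libraries, and the log2 fold change was 0.79 ± 0.42 (edgeR adjusted p = 0.77), and 0.58 ± 0.42 (edgeR adjusted p = 0.84) without Smad4 KO water 1. After DSS, Nos2 did not separate the genotypes (log2 fold change 0.032 ± 0.25, edgeR adjusted p = 0.97).

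Gpx2 (ENSMUSG00000042808; mm9 chromosome 12, 77893322 to 77896541, minus strand), the gastrointestinal glutathione peroxidase, was the most abundant member per exon length in every group. After DSS, WT libraries had 833.8, 880.3 and 826.3 CPM and Smad4 KO libraries had 1728, 1060 and 1306. Every Smad4 KO value exceeded every WT value, as in 10.4% of all genes tested. The mean was 1.62-fold higher, and Gpx2 missed the threshold in edgeR (log2 fold change 0.69 ± 0.16, edgeR adjusted p = 0.10). DESeq2 gave an adjusted p of 0.0011, edgeR without a filter on low counts 0.014, and over 15 alternatives the adjusted p ran to 0.84. On water, Gpx2 ranged from 584.0 to 1074 CPM in WT and from 612.9 to 1047 in Smad4 KO. The Smad4 KO DSS libraries lay above all of these water libraries of their genotype, as in 4.6% of all genes (log2 fold change 0.64 ± 0.23, edgeR adjusted p = 0.73). Without Smad4 KO water 1, where 7.25% of all genes did so, the log2 fold change was 0.50 ± 0.22 (edgeR adjusted p = 0.77). Its listed pseudogene Gpx2-ps1 had 107 counts over all libraries.

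Gpx1 (ENSMUSG00000063856; mm9 chromosome 9, 108241607 to 108242671, plus strand), the ubiquitous glutathione peroxidase, had 377.9 ± 30.9 CPM in WT on water and 281.0 ± 64.2 in Smad4 KO on water (SD, n = 4), a log2 fold change of -0.43 ± 0.19 (edgeR adjusted p = 0.23; without Smad4 KO water 1, -0.44 ± 0.22, edgeR adjusted p = 0.31). After DSS Gpx1 had 325.8 ± 25.5 CPM in WT and 296.9 ± 36.6 in Smad4 KO (SD, n = 3). The ratio of Gpx2 to Gpx1 counts within a library, chosen after these values were seen and so given with no test, needs no scaling between libraries. It was 2.64, 2.48 and 2.69 in WT after DSS and 5.16, 4.05 and 4.45 in Smad4 KO after DSS. In water libraries, the ratio was 1.58 to 2.56 in WT and 2.09, 3.16, 4.93 and 2.91 in those labelled Smad4 KO water 1 to 4. The water groups overlapped with all 4 Smad4 KO libraries, and without Smad4 KO water 1 they did not. How often other pairs of genes separate in this way was not examined.

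**Figure D5:**
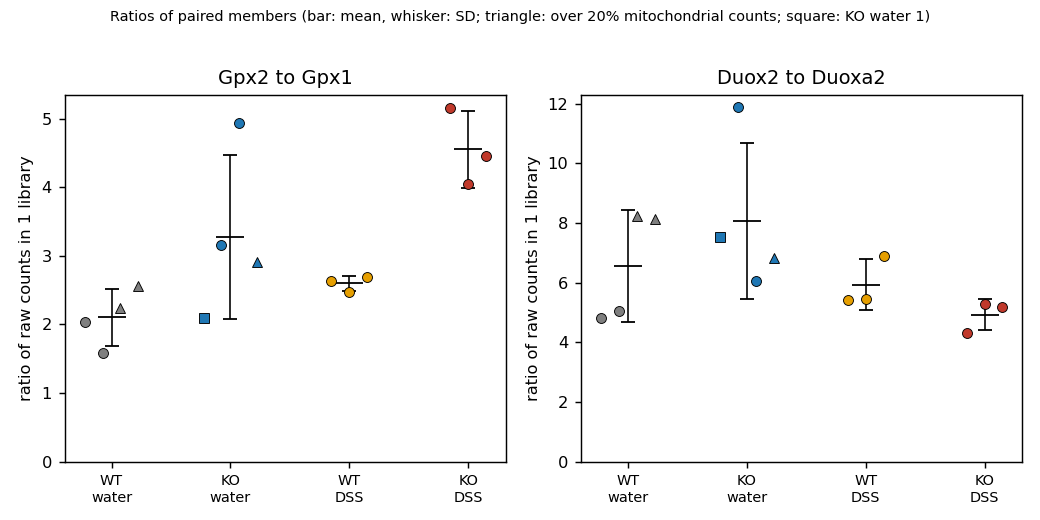
Raw counts of Gpx2 per Gpx1 count, and of Duox2 per Duoxa2 count, in each library (y, from 0; bar and whisker, mean and SD). The Gpx2 to Gpx1 ratio is 4.05 to 5.16 in Smad4 KO after DSS and 2.48 to 2.69 in WT after DSS, with no overlap.

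Nqo1, the quinone reductase (ENSMUSG00000003849; mm9 chromosome 8, 109912125 to 109927106, minus strand), had group means of 43.1 to 48.2 CPM, and its log2 fold changes lay between -0.047 and 0.16, also without Smad4 KO water 1. Txnrd1 (ENSMUSG00000020250; mm9 chromosome 10, 82296696 to 82360469, plus strand) had 259.4, 237.4, 242.1 and 258.4 CPM in WT on water and 312.1, 312.2 and 328.0 in WT after DSS. These 2 tight groups did not overlap, as in 12.8% of all genes tested. The log2 fold change of Txnrd1 was 0.35 ± 0.11 (edgeR adjusted p = 0.12, DESeq2 adjusted p = 0.011, and 0.011 to 0.48 over 17 alternatives). In Smad4 KO, Txnrd1 ranged from 238.1 to 375.2 CPM on water and from 247.2 to 322.6 after DSS. Without the library labelled Smad4 KO water 1, Txnrd1 was the 1 member whose Smad4 KO water libraries all exceeded WT water, as in 7.26% of all genes; with it there was none, against 5.18%.
The antioxidant response element core bound by NRF2, TGACNNNGC, was searched on both strands of every promoter window and found in 12.4% of all windows. Among the member windows it was found in 1, of Txnrd1. The other Txnrd1 windows, with upstream bases chr10:82833701-82833950 and chr10:82860091-82860340, had no match. The window with the match is shown for it (250 bases before the start, RefSeq, GRCm38.p6, chr10:82858956-82859205, plus strand). Capitals mark the match, which lies on the opposite strand and begins 92 bases before the start.
Txnrd1: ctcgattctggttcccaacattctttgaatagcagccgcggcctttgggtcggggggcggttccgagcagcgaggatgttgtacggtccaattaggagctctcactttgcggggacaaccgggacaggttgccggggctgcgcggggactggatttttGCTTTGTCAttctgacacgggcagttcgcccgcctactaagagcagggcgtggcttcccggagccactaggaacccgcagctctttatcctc
Nqo1 had no match in its window, which says only that these letters are not there.

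Other genes of the same systems were taken from 8 lists. No listed gene passed the edgeR test in any comparison. In WT, DSS against water, 13 of 17 tested genes among the inducers and luminal partners of DUOX2 and iNOS had a positive log2 fold change. The median of the 17 was 0.40 against -0.014 over all genes. Of the 17, 8 were under an unadjusted p of 0.05 (7 higher after DSS, 1 lower), as were 24.2% of all genes. The lower one was Lpo (log2 fold change -0.85 ± 0.23, edgeR adjusted p = 0.097). Of these listed genes, 3 chosen after their values were seen are Lcn2 (1.58 ± 0.24, edgeR adjusted p = 0.059), which sequesters bacterial siderophores, and the antimicrobial lectins Reg3b (1.78 ± 0.43, edgeR adjusted p = 0.088) and Reg3g (1.74 ± 0.38, edgeR adjusted p = 0.088). Among NRF2 and its classical targets, 16 of 26 had a positive log2 fold change (median 0.13), among glutathione peroxidases and the glutathione cycle 6 of 10 (median 0.078), among peroxiredoxins, thioredoxin and catalase 8 of 13 (median 0.041), and among other selenoproteins 5 of 15 (median -0.16). It was 6 of 12 in arginine and nitric oxide handling (median 0.017), 2 of 3 superoxide dismutases (median 0.31) and 6 of 9 remaining oxidase subunits (median 0.094). At an unadjusted p under 0.05 were 5 of 26 NRF2 genes (2 higher, 3 lower), 4 of 10 glutathione genes (2 higher, 2 lower) and 2 of 13 peroxiredoxin genes (1 higher, 1 lower). So were 4 of 15 selenoprotein genes (1 higher, 3 lower), 5 of 12 nitric oxide genes (3 higher, 2 lower), 1 of 3 superoxide dismutases (lower) and 0 of 9 oxidase subunits.

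Between the genotypes after DSS, the median log2 fold change of all genes was 0.0028. The oxidase subunits had a median log2 fold change of 0.026, NRF2 and its targets 0.048, the glutathione genes 0.060, the inducers and luminal partners 0.040, the peroxiredoxin genes -0.020, selenoproteins -0.0031, nitric oxide handling -0.0097 and the 3 superoxide dismutases -0.28. At an unadjusted p under 0.05, beside 15.4% of all genes, were 7 of 26 NRF2 genes (3 higher in Smad4 KO, 4 lower), 4 of 13 peroxiredoxin genes (2 higher, 2 lower), 3 of 15 selenoprotein genes (1 higher, 2 lower) and 2 of 12 nitric oxide genes (1 higher, 1 lower). The others were 2 of 17 inducers and partners (both lower), 1 of 10 glutathione genes (higher), 1 of 9 oxidase subunits (higher) and 1 of 3 superoxide dismutases (lower). On water, Smad4 KO against WT, medians lay between -0.13 for other selenoproteins and 0.17 for superoxide dismutases, with all genes at -0.0071. In Smad4 KO, DSS against water, they lay between -0.054 for nitric oxide handling and 0.28 for the oxidase subunits, with all genes at -0.019.

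Across the 14 libraries, the genes most like each of 3 members were ranked by Pearson's r of log2(CPM + 1) over 11566 genes, as a description; the libraries share groups and differ in mitochondrial share. Nox1 was closest to Vps13a (r = 0.984), Med14, Supt16h, Gm9853 and Usp34 (r = 0.977), with no member among them, and its r with Gpx1 was -0.82. Duox2 was closest to Hk2 (0.907), Slfn5, Trim6, Nos2 (0.893) and Cxcl5, while its partner Duoxa2 was at rank 41 (0.831). Among the 5 genes closest to Nos2 were Lmtk2, Ceacam1, Gm16015 and Wipf1 (0.914), with Duox2 at rank 17. Noxa1, the activator, followed neither Nox1 (r = -0.10) nor Duox2 (r = 0.19).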

How the data were processed

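RNA-seq was done on colon epithelium freed with EDTA, from polyA-selected RNA. The authors aligned reads to mm9 with HISAT2 and counted them per gene with featureCounts; strand setting and annotation are not given in the sources used here. The deposited values are raw whole-number counts for 37680 genes in 14 libraries, 14001 of them with no count, and libraries were grouped by their labels. The 15127 genes that reached 10 counts in 3 or more libraries, all 10 members among them, were tested with edgeR 4.0.16 (R 4.3.3) by TMM and the quasi-likelihood F test, with the 2 groups compared in the fit, and all 14 libraries for the difference of DSS responses; the standard error is the log2 fold change divided by the square root of F. P-values were adjusted by Benjamini-Hochberg. Alternatives were DESeq2 1.42.0 (independent filtering off), RLE size factors, no filter, replicate or name prefix blocks, all or 13 libraries in 1 model, prefix D alone, each library left out and, chosen after seeing the data, fits that drop or adjust for high mitochondrial shares or combine another choice with leaving out Smad4 KO water 1. The edgeR test was also run on simulated counts with known changes and the same spread for every gene. That cannot show how it handles outlying libraries or those with high mitochondrial shares. Exon lengths are unions of GENCODE M1 exons. All members are named, and list genes only if called, except where stated. The members, lists and tests were chosen with earlier results of these data known. Depths of 12882827 to 26087231 counts limit the precision of Noxo1 most. Python 3.11.15 and matplotlib 3.10.9 were used. Some genes that these rules select are not reported here.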

Additional observations from a re-analysis of the deposited data

Results flagged for a closer look

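Nos2 in Smad4 KO water 3 (147.7 CPM) was far from the other 3 libraries of its group, which had 39.1, 57.0 and 48.0. Its gap to the nearest of them was 0.835 of the group's range, just above Dixon's 95% critical value for 4 samples. This was 1 of 20 groups of 4 libraries examined, and chance alone gives about 1 in 20. Smad4 KO water 3 also had the highest Duox2 (704.6 CPM) and Duoxa2 (116.3 CPM) of its group. Without it, the log2 fold change of Nos2 on water, Smad4 KO over WT, was -0.10 in place of 0.50; without Smad4 KO water 1 it was 0.71. It is the 1 library with the name prefix MS, whose part was not tested.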

How the results depend on the processing

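Of 900 refits of a member's fold change, 818 kept their direction and side of the threshold, 14 passed it newly, 9 no longer passed (all of them Noxa1, KO over WT after DSS; prefix D alone is there the same fit as without WT DSS 3, and the prefix block gave nearly the same value, so these 3 are not separate checks) and 59 changed sign, all in comparisons whose edgeR adjusted p was at least 0.54. The cause was not tested where none is shown. Counts called depended strongly on the fit. KO over WT after DSS had 113 genes, and 485 in DESeq2, 345 with no filter, 2 with all 14 libraries in 1 model, 8 with 13 (without Smad4 KO water 1), 42 with prefix D alone, 42 with the prefix block, 64 with the mitochondrial covariate and 27 to 96 without each library in turn. Its 1 called member became 2 in DESeq2 and with no filter, 0 in the models of 14 and 13 libraries and with either use of the prefix, and 0 to 1 without each library. KO over WT on water had 1 gene, and 646, 55, 1276, 1151 and 296 in DESeq2, with no filter, 14 libraries, 13 libraries and the prefix block, 104 without libraries over 20% mitochondrial, 571 in DESeq2 and 24 with the covariate when Smad4 KO water 1 was left out, and 1 to 1740 (without KO water 4; 13 without KO water 1) without each library; Nox1 was the 1 member called in DESeq2, the model of 14, the prefix block and without libraries over 20%, and 0 to 1 member was called without each library. WT DSS over water had 0 genes, and 1641, 457, 9 and 2 in DESeq2, with no filter, prefix D and the prefix block, 1 without libraries over 20% and 0 to 418 (without WT water 2; 25 without WT water 4) without each library, with 4 members in DESeq2 and 1 with no filter. KO DSS over water had 1 gene, and 71, 19, 10 and 5 in DESeq2, with no filter, 14 and 13 libraries, 3 with the covariate, 59 in DESeq2 and 26 with the covariate when Smad4 KO water 1 was left out, and 1 to 3 without each library. The difference of responses had 1 gene, and 8, 2, 30 and 24 in DESeq2, with no filter, without libraries over 20% and in DESeq2 without Smad4 KO water 1, and 1 to 5 without each library.

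Replicate numbers did not pair the libraries: correlations of same-numbered libraries' deviations ran from -0.12 to 0.092, except 0.45 for the 2 water libraries numbered 4, which share the prefix MP. The replicate block gave 57 genes and 0 members for KO over WT after DSS, 473 and 1 on water, 54 and 1 for WT DSS over water, and 15 genes for KO DSS over water.

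Signs changed as follows (log2 fold changes). KO over WT after DSS, Noxo1 was -0.058 with prefix D alone and -0.059 with the prefix block, Duox2 -0.10 and Nos2 -0.12 with the mitochondrial covariate, and Nos2 -0.0022 with the replicate block. KO over WT on water, with the covariate Noxa1 was 0.0056, Duoxa2 -0.047 and Nqo1 0.097; with Smad4 KO water 1 also out Noxa1 was 0.058 and Nqo1 0.18. Gpx2 was -0.14 with the prefix block, Nqo1 0.10 in the model of 13 libraries and 0.11 in DESeq2 without Smad4 KO water 1, and without libraries over 20% mitochondrial Duoxa2 was -0.24 and Nqo1 0.073. WT DSS over water, Noxa1 was 0.029 with prefix D, 0.027 with the prefix block and 0.064 with the covariate, and Nqo1 was 0.16 with the replicate block, 0.039 with prefix D, 0.037 with the prefix block, 0.16 with the covariate and 0.094 without libraries over 20%. KO DSS over water, Nox1 and Noxo1 were -0.11 and -0.15 with the replicate block, -0.29 and -0.28 with the covariate, -0.47 and -0.41 with Smad4 KO water 1 also out, and -0.12 and -0.16 without libraries over 20%; with the covariate and without Smad4 KO water 1 Duox2 was -0.18 and Nos2 -0.049. The difference of responses for Duoxa2 was -0.021 in DESeq2 without Smad4 KO water 1. Leaving out each library, KO over WT after DSS ran from -0.058 to 0.26 for Noxo1, -0.13 to 0.15 for Duox2 and -0.26 to 0.27 for Nos2; on water from -0.29 to 0.39 for Duoxa2, -0.10 to 0.71 for Nos2 and -0.13 to 0.18 for Nqo1; WT DSS over water from -0.034 to 0.26 for Gpx2 and -0.15 to 0.16 for Nqo1; KO DSS over water from -0.12 to 0.30 for Nox1, -0.16 to 0.20 for Noxo1, -0.050 to 0.23 for Gpx1 and -0.13 to 0.10 for Txnrd1; and the difference from -0.11 to 0.58 for Duoxa2, -0.77 to 0.14 for Nos2 and -0.012 to 0.28 for Nqo1.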
